A study of Mus musculus with 6 samples.

Results

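Sertoli cell genes were represented by 10 genes, chosen by symbol from a list of markers, with earlier results of these data known: Wt1, Sox9, Gata4, Fshr, Inhbb, Amhr2, Dhh, Tjp1, Cldn11 and Clu. Each symbol matched 1 of the 57010 gene IDs in the count table. All 10 had counts, and 9 were among the 13413 IDs that passed the filter on low counts and were tested. The exception was Fshr.

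The RNA came from immunoprecipitates made with an antibody to PNMA4, a capsid-like protein derived from a retrotransposon and encoded by Moap1. The starting material was dense, sedimentable matter of mouse testis, taken from iodixanol fractions 8 and 9. Of the 6 libraries, 3 lacked PNMA4 and 3 were wild type, each from a lysate of 8 whole testes collected at 3 months of age. Among those lacking PNMA4, 1 library came from mice without Pnma1 and Pnma4 (DKO) and 2 from mice without Pnma4 alone (Pnma4 KO 1 and 2), while the wild-type mice (WT 1 to 3) were C57BL/6J. The DKO genotype was present as a single library, so the loss of Pnma1 cannot be told apart from whatever else was particular to that library. The antibody's target was absent from the libraries lacking PNMA4, so RNA counted there was recovered without it.

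Sertoli cells are the somatic cells of the seminiferous tubule that hold and nourish the germ cells. They are specified in the fetal gonad by transcription factors such as SOX9, respond to follicle-stimulating hormone, secrete inhibin B and desert hedgehog, and are joined to each other by the tight junctions of the blood-testis barrier. They are a minority of the cells of the adult testis, and several of these genes are also used by other cells: Gata4 and Amhr2 by Leydig cells, and Tjp1 by many cell types. In RNA of a whole tissue, fewer cells of a type and less RNA per cell cannot be told apart. Here the amount of that RNA carried into the dense fractions and onto the beads enters each value as well, and RNA of the lysates was not analysed.

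The libraries differed in composition in a way that bears on every value here. Total counts were 3138657 to 6367930 per library. The 18S ribosomal RNA-related gene Rn18s-rs5 alone took 57.5% of the DKO library, against 27.3% to 36.1% of the other 5. A larger share for 1 gene leaves a smaller share for the rest, and the scaling factor (TMM, which aligns the bulk of genes between libraries) was 0.629 in DKO and 1.01 to 1.29 elsewhere. Each gene is given both as its raw share, in raw CPM (counts per 1000000 counts of the library), and as its scaled level, in CPM (counts per 1000000 of the TMM-scaled library size). The deleted genes checked the labels: Moap1 had 0 counts in each library lacking PNMA4 and 7, 26 and 27 in WT. Pnma1 had 0 in DKO, against 78 and 152 in the Pnma4 KO libraries.

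Promoters are shown for the genes whose behaviour frames what follows, as far as the RefSeq promoter table holds them: Amhr2 and Cldn11, both highest in DKO by scaled level, and Fshr, the receptor that was barely counted. Each is a 300-base window around a RefSeq start, most of it upstream, in GRCm38.p6, read 5′ to 3′ on the gene's strand (Amhr2 chr15:102445117-102445416, plus; Cldn11 chr3:31149670-31149969, plus; Fshr chr17:89200626-89200925, minus). Capitals mark matches, on either strand, to GATA (GATA factors), ACAAT (SOX factors), AGGTCA (a nuclear receptor core) and CACGTG (an E box). No 2 matches overlapped. The Amhr2 window lies wholly inside the gene span given below, so it surrounds a start downstream of the first base of that span.
Amhr2: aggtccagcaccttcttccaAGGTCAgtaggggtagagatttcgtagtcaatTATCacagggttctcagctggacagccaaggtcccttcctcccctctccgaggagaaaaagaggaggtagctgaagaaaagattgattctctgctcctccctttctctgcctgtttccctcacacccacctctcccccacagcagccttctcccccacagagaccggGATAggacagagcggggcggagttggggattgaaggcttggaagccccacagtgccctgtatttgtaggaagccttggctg
Cldn11: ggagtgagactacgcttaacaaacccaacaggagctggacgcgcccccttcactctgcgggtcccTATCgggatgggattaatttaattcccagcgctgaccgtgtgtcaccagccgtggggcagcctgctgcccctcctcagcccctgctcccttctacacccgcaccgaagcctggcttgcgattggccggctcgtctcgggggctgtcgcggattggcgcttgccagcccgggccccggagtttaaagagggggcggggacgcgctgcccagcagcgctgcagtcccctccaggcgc
Fshr: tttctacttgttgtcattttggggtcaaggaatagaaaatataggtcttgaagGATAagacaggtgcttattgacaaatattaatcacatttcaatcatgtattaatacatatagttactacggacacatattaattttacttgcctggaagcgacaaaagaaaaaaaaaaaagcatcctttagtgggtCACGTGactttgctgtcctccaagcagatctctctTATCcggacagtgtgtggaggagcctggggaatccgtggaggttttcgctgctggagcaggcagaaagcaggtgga

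GATA was found in all 6 members' promoters in the table (Amhr2, Cldn11, Fshr, Dhh, Inhbb and Tjp1), and in 57.9% of all 32851 promoters of the same length. CACGTG was in Fshr alone of the 6 (7.15% of all promoters), AGGTCA in Amhr2 alone (16.3%) and ACAAT in Inhbb alone (31.0%). The members' promoters ran from 40.7% GC in Fshr to 66.3% in Cldn11, around a median of 52.7% for all promoters. A match describes the letters of these windows and shows no binding.

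Wt1, Sox9 and Gata4 encode the transcription factors of the set. Wt1 (chromosome 2, 105126529 to 105173614 in GRCm38.p6, as for all positions below) encodes a zinc-finger factor that Sertoli cells keep through life. Its raw share was 20.9 raw CPM in DKO and 17.8 and 28.3 in Pnma4 KO 1 and 2, against 27.0, 36.9 and 30.9 in WT 1 to 3. Its scaled level was 33.2 CPM in DKO and 17.6 and 25.5 CPM in Pnma4 KO 1 and 2, against 26.4, 28.7 and 28.7 CPM in WT. By scaled level Wt1 was highest in DKO and lowest in Pnma4 KO 1, on either side of the 3 WT libraries, which lay close together (25.5 ± 7.80 CPM lacking PNMA4 and 27.9 ± 1.34 CPM in WT, SD, n = 3 each).

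Sox9 (chromosome 11, 112782210 to 112787757), the factor that sets the Sertoli cell fate, varied little. Its scaled level was 23.6 CPM in DKO and 21.1 and 19.4 CPM in Pnma4 KO 1 and 2, against 21.7, 20.4 and 21.8 CPM in WT 1 to 3. Its coefficient of variation over the 6 libraries, 6.60%, was below the 10.2% that counting error alone would give. By raw share Sox9 was lowest in DKO, at 14.8 raw CPM (95% Wilson interval 11.8 to 18.7), against 21.3 and 21.5 in Pnma4 KO 1 and 2 and 22.2, 26.3 and 23.5 in WT.

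Gata4 (chromosome 14, 63198914 to 63271712) encodes a factor that acts in the gonad before and after sex determination. Gata4 had a scaled level of 22.9 CPM in DKO and 19.5 and 13.8 CPM in Pnma4 KO 1 and 2, against 17.0, 19.9 and 12.3 CPM in WT 1 to 3. The groups overlapped almost completely, with 1 low library in each. By raw share Gata4 was 14.4 raw CPM in DKO and 19.8 and 15.2 in Pnma4 KO 1 and 2, against 17.4, 25.7 and 13.3 in WT, so that DKO lay near the low end instead of the top.

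The signalling genes were the hormone receptor Fshr, the inhibin subunit gene Inhbb, the receptor gene Amhr2 and the ligand gene Dhh. Fshr (chromosome 17, 88984952 to 89200675), which encodes the receptor for follicle-stimulating hormone and is a defining gene of the cell type, was barely counted. It had 6 counts in DKO and 2 and 1 in Pnma4 KO 1 and 2, against 2, 2 and 6 in WT 1 to 3, or 19 in all. Its raw share was 1.25 raw CPM in DKO (95% Wilson interval 0.575 to 2.74) and 0.157 in Pnma4 KO 2 (0.0277 to 0.890), and the intervals of all libraries overlapped. Overlap of such intervals is not a test of difference, and Fshr did not pass the filter on low counts. These counts are too few to read a difference from.

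Inhbb (chromosome 1, 119415463 to 119422248) encodes the beta B subunit of inhibin B, the hormone by which Sertoli cells restrain the pituitary. By scaled level it stood at 15.6 CPM in DKO and 15.4 and 9.50 CPM in Pnma4 KO 1 and 2, against 14.1, 8.38 and 8.84 CPM in WT 1 to 3. DKO, Pnma4 KO 1 and WT 1 were high and the other 3 low, a division that crossed the genotypes. The raw shares kept Pnma4 KO 1 and WT 1 at the top, at 15.6 and 14.4 raw CPM, and put DKO at 9.83, beside 10.5 in Pnma4 KO 2, 10.8 in WT 2 and 9.53 in WT 3.

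Amhr2 (chromosome 15, 102445002 to 102454640) encodes the type 2 receptor for anti-Müllerian hormone. Its scaled level was 71.5 CPM in DKO and 45.4 and 27.9 CPM in Pnma4 KO 1 and 2, against 48.3, 31.5 and 31.4 CPM in WT 1 to 3. DKO was 1.94 times the mean of the other 5 libraries (36.9 ± 9.23 CPM, SD, n = 5), the highest ratio among the 9 tested members. By raw share DKO was not set apart: it had 45.0 raw CPM, beside 45.9 and 30.9 in Pnma4 KO 1 and 2, against 49.4, 40.5 and 33.8 in WT.

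Dhh (chromosome 15, 98881615 to 98898562) encodes desert hedgehog, the signal by which Sertoli cells address Leydig and peritubular cells. It was the single tested member whose groups did not overlap: its scaled level was 6.65, 6.30 and 6.10 CPM in DKO and Pnma4 KO 1 and 2, against 5.74, 3.94 and 4.88 CPM in WT 1 to 3. Among all tested genes 6.68% had groups that did not overlap, and with 9 members 1 such gene is close to that background. These levels rest on 20, 20 and 43 counts, against 22, 31 and 32 in WT, and the variation over libraries (18.1%) was below what counting gives (19.9%). By raw share the groups of Dhh overlapped, with 4.18, 6.37 and 6.75 raw CPM lacking PNMA4 and 5.88, 5.07 and 5.26 in WT.

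Tjp1 and Cldn11 encode parts of the tight junction. Tjp1 (chromosome 7, 65296165 to 65527850) encodes ZO-1, a scaffold of tight junctions in many cells. After scaling Tjp1 stood at 119 CPM in DKO and 133 and 137 CPM in Pnma4 KO 1 and 2, against 128, 144 and 130 CPM in WT 1 to 3. It had the lowest coefficient of variation among the members (6.28%, where counting alone gives 4.10%) and was the one that was lowest in DKO on both scales. Its raw share was 75.1 raw CPM in DKO, 135 and 152 in Pnma4 KO 1 and 2, and 131, 185 and 140 in WT.

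Cldn11 (chromosome 3, 31149920 to 31164326), the claudin that mouse Sertoli cells need to seal the barrier, varied more than Tjp1. It had a scaled level of 33.9 CPM in DKO and 28.0 and 13.3 CPM in Pnma4 KO 1 and 2, against 21.1, 21.8 and 16.5 CPM in WT 1 to 3. The 2 Pnma4 KO libraries, of 1 genotype, were 2.10-fold apart and enclosed all WT libraries. By raw share Cldn11 was 21.3 raw CPM in DKO and 28.4 and 14.8 in Pnma4 KO 1 and 2, against 21.6, 28.1 and 17.7 in WT.

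Clu (chromosome 14, 65968483 to 65981548) encodes clusterin, a secreted chaperone that is a major product of Sertoli cells. After scaling it stood at 188 CPM in DKO and 131 and 71.5 CPM in Pnma4 KO 1 and 2, against 121, 114 and 62.4 CPM in WT 1 to 3. It was the most variable tested member, with a coefficient of variation of 39.7% where counting gives 4.40%. The low libraries were Pnma4 KO 2 and WT 3 on both scales, while the highest was DKO by scaled level and WT 2 by raw share (147 raw CPM, against 119 in DKO).

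**Figure D1:**
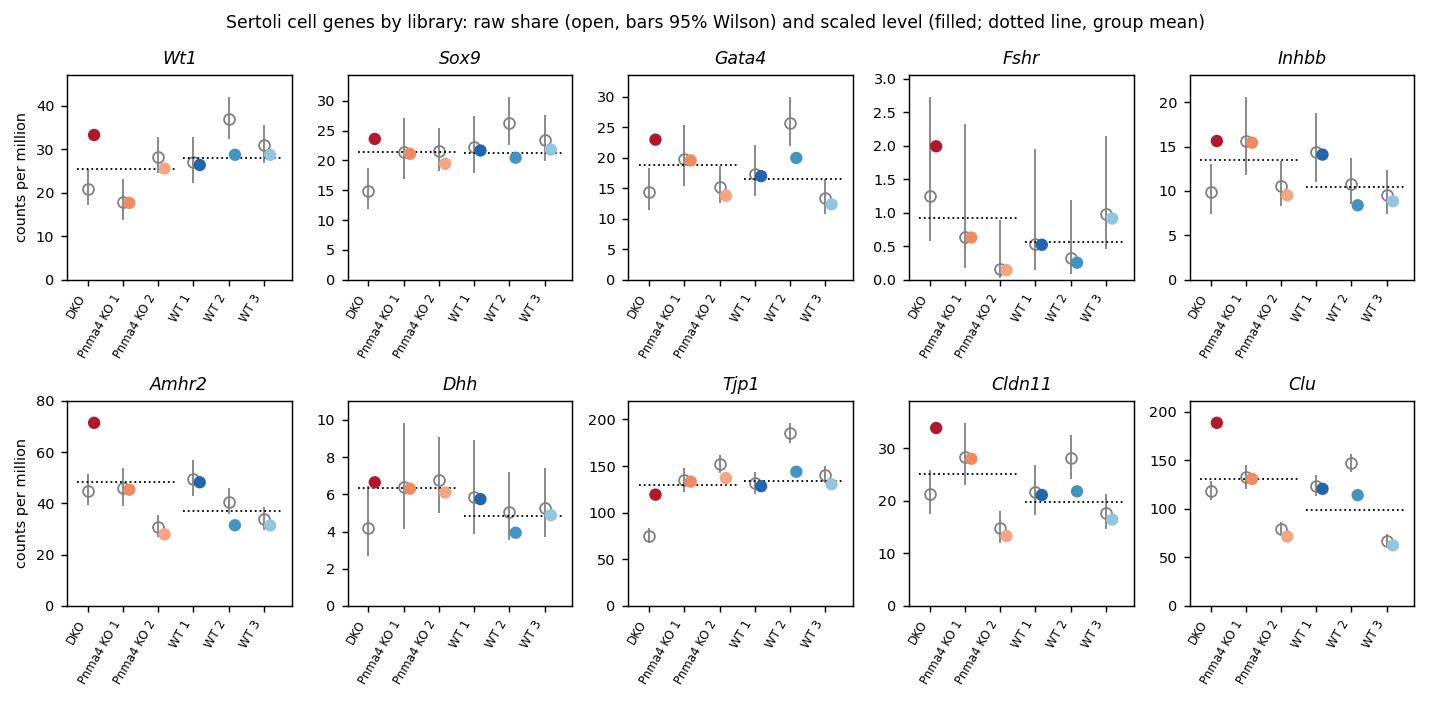
Level of each of the 10 Sertoli cell genes (y axis, counts per 1000000) in each library (x axis), as raw share (open circles with 95% Wilson intervals) and as scaled level (filled circles, with dotted lines at the means of the 3 libraries lacking PNMA4 and of the 3 WT libraries). In DKO, with a scaling factor of 0.629, the filled circle lies far above the open one in every panel. Sox9 and Tjp1 stay nearly level by scaled level, while Clu spans 62.4 to 188 CPM.

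The comparison of libraries lacking PNMA4 with wild type asks whether Sertoli cell RNA was recovered differently when the antibody's target was missing. None of the 9 tested members passed in either direction. The edgeR log2 fold changes, lacking PNMA4 over WT, ran from −0.14 for Wt1 to 0.41 for Dhh, with 6 above 0 and 3 below and a median of 0.31, beside a median of −0.01 for all tested genes. Over all genes 8 of 13413 passed, or 0.0596%, so 0 of 9 is what the background gives. No member had an unadjusted p under 0.05, and the edgeR adjusted p was 1.00 for each.

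Single members show how wide the intervals were. Clu stood at 130.2 ± 58.5 CPM lacking PNMA4 and 99.0 ± 31.9 CPM in WT (SD, n = 3 each), a log2 fold change of 0.39 with a 95% interval of −0.19 to 0.96. Amhr2 stood at 48.3 ± 21.9 CPM lacking PNMA4 and 37.1 ± 9.72 CPM in WT (0.37, interval −0.18 to 0.93). Tjp1 stood at 129.9 ± 9.32 CPM lacking PNMA4 and 134 ± 8.43 CPM in WT (−0.05, interval −0.45 to 0.36). For 8 of the 9 members the interval lay within 1 of 0, short of a 2-fold difference on the TMM scale. Dhh was the exception, with an upper bound of 1.06.

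The size of the positive median depended on DKO, and the Pnma4 KO libraries differed from each other. Without DKO the median log2 fold change of the same 9 genes was 0.0091, and the contrast of Pnma4 KO over WT in a fit with the 3 genotypes apart gave 0.0097. That contrast gave 0.31 when Pnma4 KO 2 was left out and −0.13 when Pnma4 KO 1 was left out. With all libraries no member passed in that contrast either, against 0.0671% of all genes. There Amhr2 stood at 36.7 CPM in the mean of the Pnma4 KO libraries and 37.1 CPM in WT, Clu at 101 and 99.0 CPM, and Cldn11 at 20.7 and 19.8 CPM. The intervals of 8 of the 9 log2 fold changes again lay within 1 of 0. Wt1 had the lowest value (−0.35, interval −0.88 to 0.18) and Dhh the highest (0.38, interval −0.34 to 1.09).

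**Figure D2:**
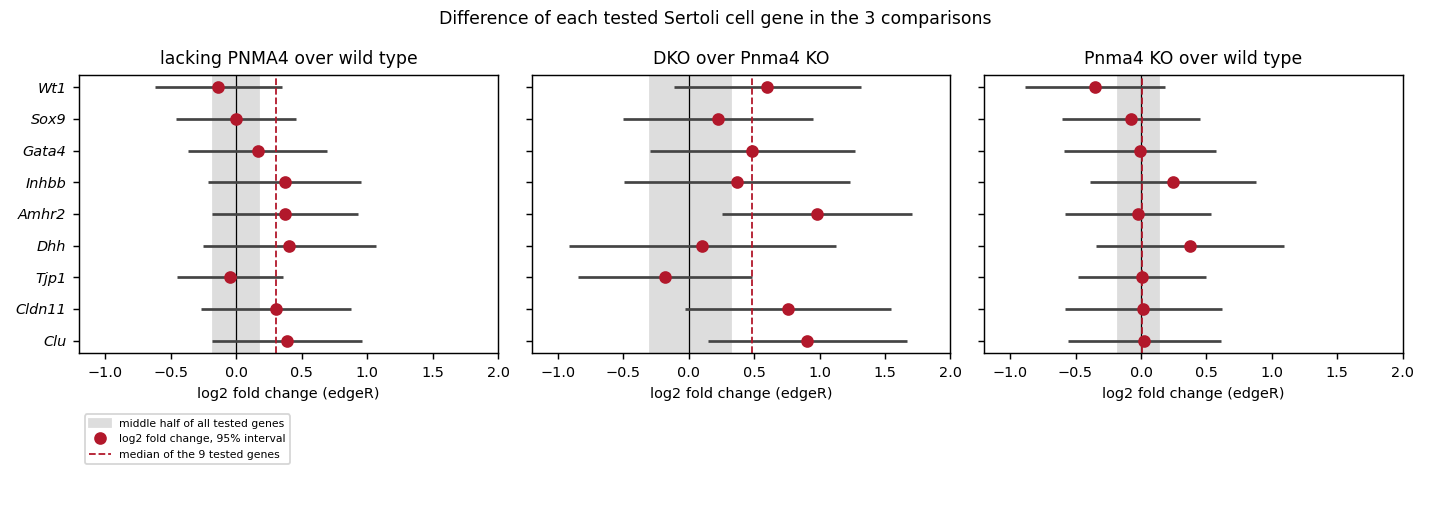
Log2 fold change (x axis, edgeR) of the 9 tested Sertoli cell genes (y axis) for the libraries lacking PNMA4 over WT, DKO over Pnma4 KO, and Pnma4 KO over WT, with 95% intervals as bars, the median of the 9 genes as a dashed line and the range between the quartiles of all tested genes shaded. The median is 0.49 for DKO over Pnma4 KO and 0.0097 for Pnma4 KO over WT, and in the middle panel the intervals of Amhr2 and Clu lie above 0.

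DKO over Pnma4 KO compared the genotypes within the group. By scaled level 8 of the 9 tested members were higher in DKO than in the mean of Pnma4 KO, led by Amhr2, Clu and Cldn11, and Tjp1 was lower, but none passed. Over all genes 10 of 13413 passed, or 0.0746%. The log2 fold change was 0.98 for Amhr2 (interval 0.26 to 1.71, edgeR adjusted p = 0.531), 0.91 for Clu (0.15 to 1.67, edgeR adjusted p = 0.683) and 0.76 for Cldn11 (−0.03 to 1.55, edgeR adjusted p = 0.827). Amhr2 and Clu had an unadjusted p under 0.05, as had 3.73% of all genes in that direction. Without Pnma4 KO 2 the log2 fold change was 0.63 for Amhr2, 0.50 for Clu and 0.24 for Cldn11. Without Pnma4 KO 1 the values were 1.35 for Amhr2, 1.40 for Clu and 1.34 for Cldn11. The 9 genes had a median of 0.49, and all tested genes one of −0.0036. The interval lay within 1 of 0 for 2 members, Sox9 and Tjp1, and for the other 7 it reached past a 2-fold difference, and the single DKO library was assumed to vary like the others.

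The Pnma4 KO libraries also differed from each other in several of these genes. Pnma4 KO 1 over Pnma4 KO 2 was 2.10-fold in Cldn11, 1.83-fold in Clu, and 1.62-fold in both Amhr2 and Inhbb, while it was 1.42-fold in Gata4, 1.09-fold in Sox9, 1.03-fold in Dhh and 0.973-fold in Tjp1. Wt1 differed the other way, at 0.691-fold. Averaged over the 9 genes, the log2 scaled level centred on each gene's mean over libraries was 0.42 in DKO, 0.12 in Pnma4 KO 1 and −0.26 in Pnma4 KO 2, and 0.08, −0.09 and −0.27 in WT 1 to 3. Pnma4 KO 2 and WT 3 were the low libraries in their groups.

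The order of the libraries depended on the scale. By scaled level DKO was the highest of the 6 libraries in 8 of the 9 tested members, as it was in 22.9% of all tested genes. As a share of counts outside the rRNA-like genes (Rn18s-rs5, Lars2 and others listed with them), DKO was highest in 7 of 9 members and in 25.5% of all genes. By raw share DKO was highest in none of the 9 members and in 1.63% of all genes. It was lowest in 3 members (Sox9, Tjp1 and Dhh), where 73.3% of all genes were lowest in DKO.

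Without scaling factors the median log2 fold change of DKO over Pnma4 KO was −0.26 for the members and −0.76 for all tested genes. For the libraries lacking PNMA4 over WT it was −0.08 for the members and −0.31 for all tested genes. On both scales and in both contrasts the members' median stood above that of all genes. The sign of Wt1, Sox9, Gata4, Inhbb and Dhh in DKO over Pnma4 KO was negative by raw share and positive by scaled level.

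**Figure D3:**
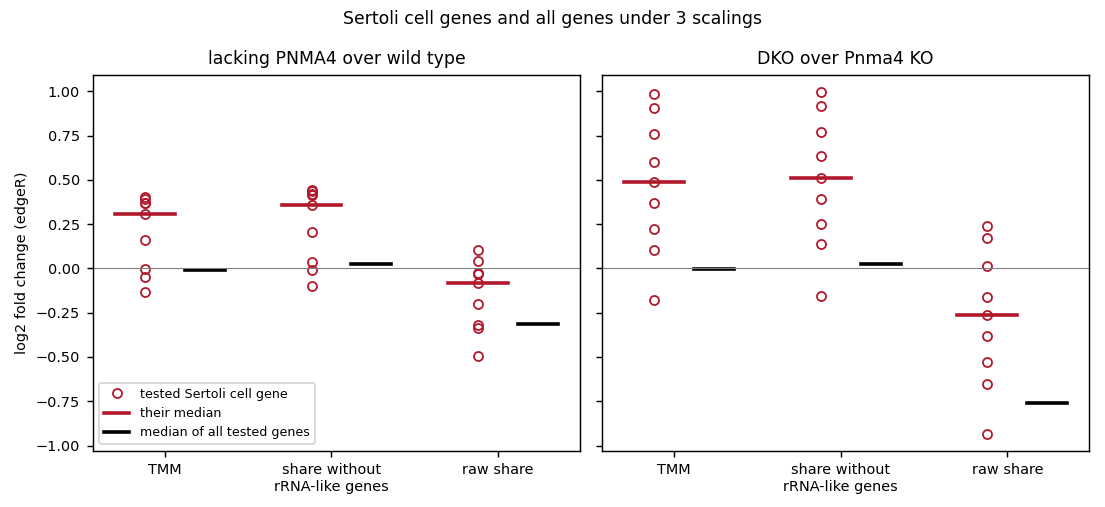
Log2 fold change (y axis, edgeR) of the 9 tested Sertoli cell genes (circles), their median (red line) and the median of all tested genes (black line) under 3 scalings (x axis), for the libraries lacking PNMA4 over WT and for DKO over Pnma4 KO. With raw shares both medians move down together, to −0.26 for these genes and −0.76 for all genes in DKO over Pnma4 KO.

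Other Sertoli cell markers and the genes around the members were taken from lists that do not hold the members. Of 32 other markers, 26 were tested and 21 of them were above 0 in DKO over Pnma4 KO, with a median of 0.77, and 1 passed. Their summed scaled level was 577 CPM in DKO, against 322 to 348 CPM in the other 5 libraries. By raw share the sum was 363 raw CPM in DKO, within the 339 to 437 of the other 5. In the comparison of libraries lacking PNMA4 with WT 15 were above 0 and 11 below, and none passed. The marker that passed was Ptgds, which encodes prostaglandin D synthase, an enzyme of the prostaglandin loop that sustains Sox9 in the fetal gonad.

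Ptgds had 173 counts in DKO and 39 and 91 in Pnma4 KO 1 and 2, or scaled levels of 57.5, 12.3 and 12.9 CPM, beside 17.7, 10.4 and 9.15 CPM in WT 1 to 3. It was the one gene of the Sertoli cell and sex determination lists that passed in DKO over Pnma4 KO (edgeR adjusted p = 0.00459, log2 fold change 2.18 with standard error 0.36). Over 11 alternatives its log2 fold change was 1.43 to 2.22 and the edgeR adjusted p 3.06e-05 to 0.0446. Ptgds is also made by other cells of the male tract.

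Of the remaining markers, several known products of adult Sertoli cells were high in DKO without passing. The protease gene Ctsl was at 97.7 CPM in DKO and 51.7 and 26.9 CPM in Pnma4 KO 1 and 2, against 38.1, 33.4 and 33.2 CPM in WT. Gja1, which encodes the gap junction protein connexin 43, was at 58.5 CPM in DKO and 28.0 and 14.8 CPM in Pnma4 KO 1 and 2, against 21.1, 30.0 and 23.9 CPM in WT. The inhibin alpha subunit gene Inha was at 23.3 CPM in DKO and 13.9 and 8.79 CPM in Pnma4 KO 1 and 2, against 11.5, 12.7 and 6.56 CPM in WT. In these 3 genes, singled out after their values were seen, Pnma4 KO 2 was the lowest of the libraries lacking PNMA4, as in Clu and Cldn11. Amh, which adult Sertoli cells silence, did not pass the filter and stayed at or under 0.332 CPM in every library.

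Among junction genes of the barrier and of Sertoli-germ cell contact 23 of 28 were tested, with a median of 0.26 in DKO over Pnma4 KO and 0.09 in lacking PNMA4 over WT. None passed in either. Nectin3, an adhesion gene of spermatids, was at 220 CPM in DKO and 219 and 219 CPM in Pnma4 KO 1 and 2, against 175, 194 and 215 CPM in WT. Its linker gene Afdn was at 71.8 CPM in DKO and 84.4 and 94.3 CPM in Pnma4 KO 1 and 2, against 109, 89.7 and 99.7 CPM in WT. The summed level of this list, 968 CPM in DKO, was 1.13 times the mean of the other libraries.

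The partner pathways of Dhh, Amhr2, Inhbb and Fshr did not pass in any gene. Of 17 hedgehog genes 10 were tested (median −0.16 in DKO over Pnma4 KO), and the inhibitor gene Sufu was at 45.2, 63.3 and 57.3 CPM lacking PNMA4, with 62.4, 68.3 and 53.7 CPM in WT. Of 24 genes of the inhibin, activin and anti-Müllerian hormone pathway 15 were tested (median 0.05). Among them the signal transducer gene Smad5 was at 52.8 CPM in DKO and 55.4 and 66.5 CPM in Pnma4 KO 1 and 2, against 44.1, 45.3 and 79.4 CPM in WT. All 16 genes of follicle-stimulating hormone signalling were tested (median −0.04), and the protein kinase A subunit gene Prkar1a was at 111, 107 and 119 CPM lacking PNMA4 and 88.5, 98.3 and 113 CPM in WT. Of 24 genes of testis determination 17 were tested, with a median of 0.28, and Ptgds alone passed.

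The summed scaled levels of Leydig and of peritubular and stromal markers were also high in DKO, although no gene of these lists passed in DKO over Pnma4 KO, and their part in the values above was not tested. The members' summed scaled level was 517 CPM in DKO, against 318 to 418 CPM in the other 5 libraries, a ratio of 1.39 to their mean. Leydig cell markers, of which 18 of 19 were tested, summed to 670 CPM in DKO and 348 to 414 CPM elsewhere (1.77), and Cyp17a1, an enzyme of androgen synthesis, was at 127 CPM in DKO and 31.9 to 54.8 CPM elsewhere. Peritubular and stromal markers, 8 of 14 tested, summed to 115 CPM in DKO and 56.3 to 68.1 CPM elsewhere (1.86). How far DKO stood out in these sums depended on the scale. By raw share the members summed to 325 raw CPM in DKO and 343 to 506 elsewhere. Leydig markers summed to 422 raw CPM in DKO and 360 to 530 elsewhere, and peritubular and stromal markers to 72.6 and 62.4 to 72.4.

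Endothelial and macrophage markers had ratios of 1.04 (3 of 10 tested) and 1.03 (6 of 11 tested). Germ cell lists had ratios of 1.13 for spermatogonia, 0.949 for spermatocytes, 0.980 for round spermatids and 1.01 for elongating spermatids. Among defining markers, the Leydig gene Star was at 46.2 CPM in DKO and 38.0 to 46.5 CPM elsewhere, the macrophage gene Aif1 at 25.9 CPM and 25.3 to 46.7 CPM, and the spermatocyte gene Stag3 at 366 CPM and 314 to 461 CPM. Of 16 epididymis markers 7 had no count in any library and 2 were tested (ratio 2.06). Of these Crisp1, a secreted protein of that duct, rose in the libraries lacking PNMA4 (edgeR adjusted p = 0.00245, log2 fold change 3.57 with standard error 0.56, and adjusted p of 1.47e-07 to 0.0497 over 14 alternatives with edgeR, DESeq2 or limma), with 24 counts in DKO and 20 and 21 in Pnma4 KO 1 and 2, against 2, 5 and 1 in WT 1 to 3.

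**Figure D4:**
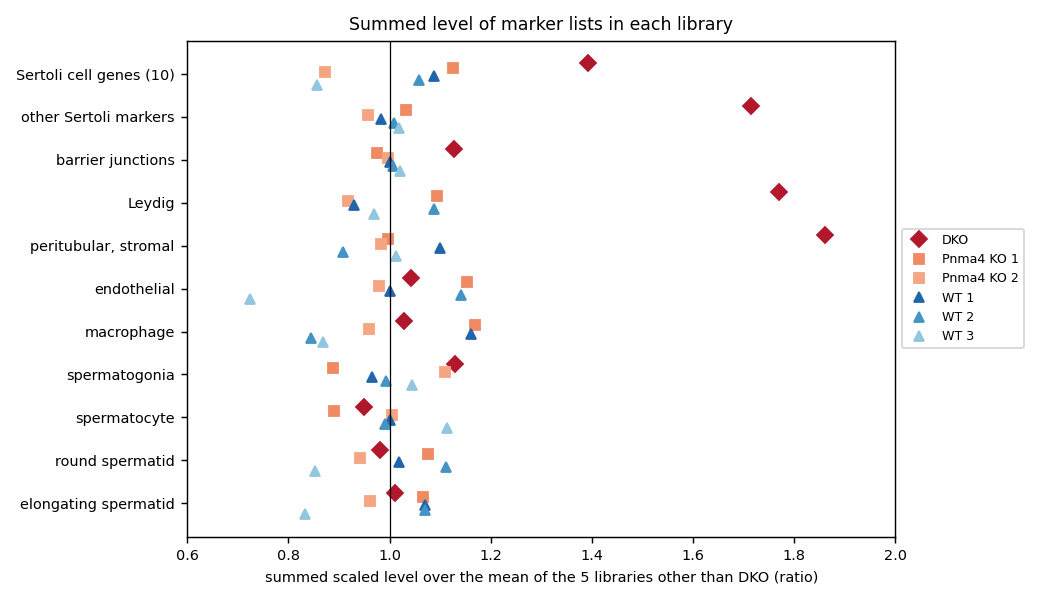
Summed scaled level of each marker list (y axis) in each library, as a ratio to the mean of the 5 libraries other than DKO (x axis). DKO stands at 1.39 for the 10 Sertoli cell genes, 1.71 for other Sertoli markers, 1.77 for Leydig and 1.86 for peritubular and stromal markers, and between 0.949 and 1.13 for the germ cell, endothelial and macrophage lists. Raw shares are not drawn. By raw share DKO was below the other 5 for the 10 Sertoli cell genes and the barrier, germ cell, endothelial and macrophage lists. It lay within their range for other Sertoli and Leydig markers and just above it for peritubular and stromal markers.

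The common profile of the 9 tested members, which they themselves define, was the mean of their centred log2 levels in each library. The distance of each from it, the root mean square difference over the 6 libraries, was 0.16 for Gata4, 0.18 for Sox9, 0.22 for Inhbb, 0.24 for Cldn11, 0.24 for Amhr2, 0.25 for Dhh, 0.30 for Tjp1, 0.31 for Clu and 0.35 for Wt1. Among 7073 other genes of at least 10 CPM the median distance was 0.34. The members' distances cannot be weighed against it, since each member is part of the profile it is measured from. The closest of these genes were Cdc20 (0.06), a cell cycle activator, Npr1 (0.06), the receptor for atrial natriuretic peptide, Rpl27a (0.07), a ribosomal protein whose near-identical copies can share its reads, Arpc2 (0.07), of the actin-nucleating ARP2/3 complex, Nscme3l (0.08) and Arf5 (0.08), a small GTPase. Cdc20, for example, was at 66.8 CPM in DKO and 53.2 and 44.3 CPM in Pnma4 KO 1 and 2, against 52.5, 50.3 and 40.1 CPM in WT 1 to 3. Within a library 1 scaling factor applies to every gene, and the likeness is a description of 6 libraries.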

How the data were processed

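Counts were measured in 6 libraries of PNMA4 immunoprecipitates from mouse testis. The authors deposited whole-number raw counts per Ensembl gene ID. The submitters' processing notes name GRCm38, STAR 2.5.2b, featureCounts, bcl2fastq 2.20 and DESeq2. Their roles, the strand setting and the annotation's release: not given in the sources used here. Positions and promoters came from RefSeq tables of GRCm38.p6, matched by symbol (10 of 10 members in the gene table, 6 in the promoter table). No reference genome was used.

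Tests across all genes used glmQLFTest (quasi-likelihood, edgeR 4.0.16, R 4.3.3; filterByExpr, minimum count 10 and minimum total 15; TMM; Benjamini-Hochberg at 0.05), first as 3 libraries lacking PNMA4 over 3 wild type, as the labels group them, then with 3 genotypes as groups. Standard errors were derived as the size of a log2 fold change divided by the root of its F. The fit of 3 libraries over 3 was tested on simulated data, and the fit with 3 genotypes was not. No 2 libraries agreed within sampling noise (chi-square per gene at least 8.60). The design text calls the lysates biological replicates. Wilson intervals cover counting error only.

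The members and gene lists were chosen with earlier results of these data known. Named genes were the members, genes of each list past the threshold or else its 2 of highest mean CPM (which also depends on gene length), and the 6 genes of closest profile; further genes named were chosen after their values were seen. Alternatives were other scalings, filters, DESeq2 1.42.0, limma-voom (limma 3.58.1), a replicate block and each library left out. No gene lengths were used, so CPM is not a level per length.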

Additional observations from a re-analysis of the deposited data

How the results depend on the processing

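No tested member passed the threshold under any of the 15 settings tried (lowest adjusted p 0.165), and Ptgds and Crisp1 kept their calls and direction wherever they were refitted. Without scaling factors the members' median was −0.080 for libraries lacking PNMA4 over WT and −0.26 for DKO over Pnma4 KO, where 198 genes were called. There the sign turned, lacking PNMA4 over WT, in Clu (−0.033), Gata4 (−0.20), Cldn11 (−0.080) and Amhr2 (−0.024). It turned in DKO over Pnma4 KO in Sox9 (−0.53), Wt1 (−0.16), Gata4 (−0.26), Inhbb (−0.38) and Dhh (−0.65), and in Pnma4 KO over WT in Clu (−0.094), Tjp1 (−0.089) and Cldn11 (−0.093). With library sizes free of rRNA-like genes Sox9 was 0.038 lacking PNMA4 over WT, and Gata4 was 0.028 and Amhr2 0.018 in Pnma4 KO over WT. With the stricter filter (at least 50 counts in 3 libraries) Sox9 was 0.0093, and 2 genes were called lacking PNMA4 over WT and 0 (61 at an unadjusted p under 0.05) in Pnma4 KO over WT. Without a filter 31 genes were called lacking PNMA4 over WT, 31 in DKO over Pnma4 KO and 27 in Pnma4 KO over WT; fewer or more genes tested changes the adjustment.

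Leaving out each library in turn gave 8 to 18 genes called and a members' median of 0.0091 to 0.44 lacking PNMA4 over WT, 10 to 35 and 0.20 to 0.71 in DKO over Pnma4 KO, and 9 to 20 and −0.13 to 0.31 in Pnma4 KO over WT. The counts furthest from the full set were 18 without DKO (lacking PNMA4 over WT), 35 without WT 3, 22 without WT 2 and 18 without Pnma4 KO 1 (DKO over Pnma4 KO), and 20 without WT 2 and 18 without DKO (Pnma4 KO over WT), and the median of 0.31 was without Pnma4 KO 2. The cause was not tested. Lacking PNMA4 over WT, Sox9 was −0.075 to 0.071, Wt1 −0.35 to 0.058, Tjp1 −0.086 to 0.0091, Gata4 −0.025 to 0.37 and Amhr2 −0.021 to 0.66. In DKO over Pnma4 KO Inhbb was −0.012 to 0.71. In Pnma4 KO over WT Clu was −0.47 to 0.42, Inhbb −0.10 to 0.61, Cldn11 −0.57 to 0.52, Sox9 −0.13 to 0.0038, Gata4 −0.26 to 0.26, Amhr2 −0.40 to 0.31 and Tjp1 −0.012 to 0.062. Without DKO, DKO over Pnma4 KO could not be fitted. Same-numbered libraries deviated together weakly (r of 0.046, −0.073 and 0.102), within the −0.221 to 0.220 of differently numbered ones. With so few libraries this cannot settle whether the numbers pair them. The replicate block gave 7 genes called and a median of 0.23. DESeq2, limma-voom and the block were run for libraries lacking PNMA4 over WT alone. Depth limits Fshr, with 19 counts, and Dhh, with 168.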
